A study of Mus musculus with 5 samples.

Results

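Genes for adenosine receptors, for the enzymes that form and remove adenosine and for the transporters that carry it were examined in ribosome-bound RNA of Drd2 neurons of the central amygdala (CeA). The 9 genes were chosen by name: the receptors Adora2a, Adora1 and Adora2b, the ectonucleotidases Nt5e and Entpd1, the enzymes Adk and Ada, and the nucleoside transporters Slc29a1 and Slc29a2. Of these, 8 were among the 15093 genes listed, and each of the 8 identifiers carried the same symbol in a current gene table. Ada, adenosine deaminase, was not listed. Only genes that exceed 1 CPM in some library are in the table, so Ada is treated here as not expressed at that level. With its own software and cutoffs, the study listed Adora2a among the genes higher after fear conditioning. It reported no significant change of Drd2. The study carried Adora2a forward to pharmacology partly on the basis of these libraries, so the direction of Adora2a in them is not independent evidence.

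All libraries came from adult Drd2-TRAP mice, in which Cre under Drd2 control switches on an EGFP-tagged ribosomal protein L10a, so that tagged ribosomes mark cells with present or past Cre activity and not only cells with Drd2 at that time. Translating ribosome affinity purification (TRAP) of bilateral CeA punches gave 1 library per pool of 3 animals. The fear conditioned group had 3 libraries (replicates 2, 3 and 4), from mice given tones paired with foot shock. The control group had 2 libraries (replicates 6 and 7), from mice labelled Home Cage. The study's text uses the initials of that label for them and elsewhere describes tone exposure without shock, so which of these they received is unclear. Brains were taken 2 h after the session, which the text calls conditioning and the labels call extinction. Each library is a separate pool, so p-values measure the spread between pools.

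Adenosine is formed outside the cell when ectonucleotidases strip phosphates from ATP and its products, and it is cleared by uptake and by phosphorylation inside the cell. Its A1 receptor couples to inhibitory G proteins and is widespread in the brain. Its A2A receptor couples to stimulatory G proteins and is concentrated in striatal neurons that carry the D2 dopamine receptor, where both receptors act on adenylyl cyclase in opposite directions.

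The deposited values are reads per 1000000 (CPM) of an effective library size. Each value is a whole multiple of the value of 1 read, and the recovered reads on genes numbered between 19605318 and 27937520 per library. A floor of 3 reads corresponds to between 0.1002 and 0.158 CPM and covers counting error only. The control libraries differed from each other far more than the fear conditioned libraries did. Pearson's r of log2 values across genes, which are not independent replicates, was 0.787 for the control pair and at least 0.979 for pairs of fear conditioned libraries. The numbers of genes listed at 0 were 976 and 2681 in control replicates 6 and 7 and between 159 and 349 in the fear conditioned libraries. Drd2 itself was well represented, with between 128 and 555 CPM. Drd1a, the gene of the D1 receptor and a marker of the other class of striatal projection neuron, had 33.9, 42.8 and 83.5 CPM in fear conditioned replicates 2, 3 and 4, compared with 15.2 and 27.6 in control replicates 6 and 7. The groups did not overlap in it, with a log2 fold change of 1.23 beside 1.15 for Drd2.

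Among the receptors, Adora2a (ENSMUSG00000020178) had 453, 771 and 775 CPM in fear conditioned replicates 2, 3 and 4. It had 105 and 275 CPM in control replicates 6 and 7. Every fear conditioned library was above both control libraries, and the lowest of them was 1.65-fold above the higher control. Group means were 666 ± 185 CPM (SD, n = 3) and 190.0 ± 121 (SD, n = 2). The log2 fold change on the log2(CPM + 1) scale was 1.92 (standard error 0.47, 95% interval from 0.80 to 3.05), larger than that of 95.6% of the genes tested. It did not pass the test across all genes (adjusted p = 0.200, limma with Benjamini-Hochberg adjustment). The 2 control libraries stood 2.63-fold apart, so the size of the fold change depended on which was used. Without control replicate 6 it was 1.23, and without control replicate 7 it was 2.62.

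Adora1 (ENSMUSG00000042429), which encodes the A1 receptor, had 116, 186 and 160 CPM in fear conditioned replicates 2, 3 and 4. It had 103 and 75.1 CPM in control replicates 6 and 7. The groups did not overlap here either, but the lowest fear conditioned library was only 1.13-fold above the higher control. The log2 fold change was 0.78 (standard error 0.29, 95% interval from 0.07 to 1.48), and it did not pass (adjusted p = 0.268, limma). In the RefSeq annotation Adora1 overlaps Mybph, which was not among the genes listed and is not analysed here.

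Adora2b (ENSMUSG00000018500), the gene of the A2B receptor, was close to the limit of listing. It had 34, 46 and 49 reads in fear conditioned replicates 2, 3 and 4, or 1.61, 1.92 and 2.43 CPM. In control replicate 6 it had 154 reads (5.14 CPM) and in control replicate 7 it had 0, a count that allows up to 0.158 CPM. The fear conditioned libraries thus lay between the controls, and the log2 fold change of 0.26 (95% interval from -1.79 to 2.31) had no stable direction. Without control replicate 7 it was -1.05, and without control replicate 6 it was 1.57.

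The remaining receptor, A3, could not be read from these data. A row named Adora3 had 178 reads in control replicate 7 and 0 in the other 4 libraries, but its identifier (ENSMUSG00000074344) now belongs to Tmigd3, a gene that overlaps Adora3. It was left out of all counts.

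**Figure D1:**
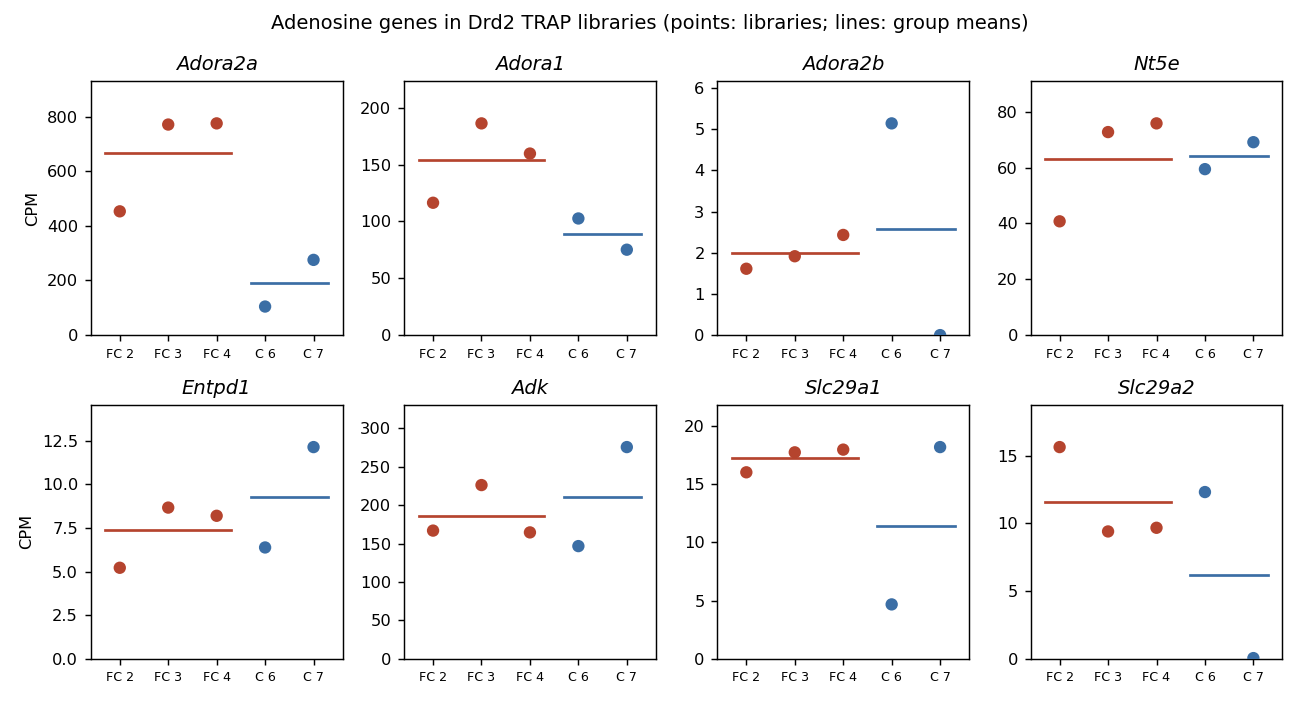
CPM of each of the 8 listed adenosine genes (vertical axes, linear and starting at 0) in fear conditioned (FC, red) and control (C, blue) libraries, with 1 point per library and lines at the group means. Only Adora2a and Adora1 have all 3 fear conditioned points above both controls; control replicate 7 is at 0 for Adora2b and at 0.0527 CPM for Slc29a2.

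The enzymes that form adenosine outside the cell showed no difference beyond the spread between libraries. Nt5e (ENSMUSG00000032420), or CD73, converts AMP to adenosine. It had 40.8, 72.8 and 75.9 CPM in fear conditioned replicates 2, 3 and 4, compared with 59.5 and 69.1 in control replicates 6 and 7. The control values lay inside the range of the fear conditioned ones, with a log2 fold change of -0.07 (95% interval from -0.92 to 0.77, adjusted p = 0.928, limma). The interval still admits a change of nearly 1 log2 unit in the negative direction.

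Entpd1 (ENSMUSG00000048120), or CD39, acts one step earlier, on ATP and ADP, and is known in the brain mainly from microglia and vessels. It had 5.22, 8.66 and 8.19 CPM in fear conditioned replicates 2, 3 and 4, compared with 6.38 and 12.1 in control replicates 6 and 7. The groups overlapped, with a log2 fold change of -0.26 (95% interval from -1.64 to 1.12, adjusted p = 0.834, limma). The 10 microglia genes listed summed to 138, 75.7 and 137 CPM in fear conditioned replicates 2, 3 and 4, compared with 159 and 140.0 in the controls, with none of them at 0 in any library. Their part in the Entpd1 values was not tested.

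Of the enzymes that remove adenosine, Adk (ENSMUSG00000039197) was the one listed. Adenosine kinase returns adenosine to AMP and is found mainly in astrocytes of the adult brain. It had 167, 226 and 164 CPM in fear conditioned replicates 2, 3 and 4, compared with 147 and 276 in control replicates 6 and 7. The control libraries enclosed all fear conditioned ones, and the log2 fold change was -0.13 (95% interval from -0.93 to 0.67, adjusted p = 0.860, limma). The 10 astrocyte genes listed, by contrast, summed to between 975 and 1193 CPM after fear conditioning and to 2373 and 3021 in the controls. By the log2(CPM + 1) estimate 8 of them were lower after fear conditioning and 2 higher, and none was at 0 in any library. How much of the Adk signal came from astrocytes was not tested.

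The equilibrative nucleoside transporters varied less among the fear conditioned libraries than between the controls. Slc29a1 (ENSMUSG00000023942), or ENT1, had 16.02, 17.7 and 17.97 CPM in fear conditioned replicates 2, 3 and 4. It had 4.68 CPM in control replicate 6 and 18.2 in control replicate 7, which was above every fear conditioned library. The log2 fold change of 0.80 (95% interval from -0.71 to 2.32, adjusted p = 0.536, limma) therefore rested on control replicate 6, and it was -0.07 without that library. The endothelial genes, which mark a site of Slc29a1, summed to between 23.8 and 66.1 CPM after fear conditioning and to 108 and 144 in control replicates 6 and 7. Of the 10, 2 were at 0 in control replicate 7 and 1 in control replicate 6. Slc2a1 alone made up 57.4 and 59.2 CPM of the sums in control replicates 6 and 7. By the log2(CPM + 1) estimate, 7 of the 9 endothelial genes tested were lower after fear conditioning and 2 higher. The groups did not overlap in 2 lower and 1 higher of them (33.3%, near the 36.4% of all genes). The part of the endothelial genes was not tested.

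Slc29a2 (ENSMUSG00000024891), or ENT2, showed the reverse. It had 330, 226 and 195 reads in fear conditioned replicates 2, 3 and 4 (15.6, 9.41 and 9.68 CPM), 369 reads in control replicate 6 (12.3 CPM) and 1 read in control replicate 7 (0.0527 CPM). Its log2 fold change of 1.71 (95% interval from -0.93 to 4.36, adjusted p = 0.457, limma) rested on control replicate 7, and it was -0.12 without that library. For these 2 transporters, opposite control libraries gave the low value.

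Across the 8 genes, 0 met both cutoffs (adjusted p of 0.05, log2 fold change of 0.5 in either direction), as did 0 of all 13560 genes tested (0.0%, limma). An unadjusted p under 0.05 was given to 2 of the 8, Adora2a and Adora1, both higher after fear conditioning, against 2280 of all genes (16.8%, with 9.49% higher). The same 2 had groups that did not overlap, against 36.4% of all genes tested (20.2% with the fear conditioned libraries higher and 16.1% lower), so 2 of 8 is near that background. DESeq2 on the recovered reads called 1 of the 8, Adora2a, with an adjusted p of 0.0124 and a log2 fold change of 1.76. It called 7.96% of all 14507 genes to which it gave an adjusted p, 3.95% as higher. On the same reads edgeR's quasi-likelihood test called 0 of the 8 genes and 0 of 14489 genes in all (0.0%), with 2404 at an unadjusted p under 0.05. The median log2 fold change was 0.52 over the 8 genes and 0.08 over all genes tested. All 8 passed the filter on low values.

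**Figure D2:**
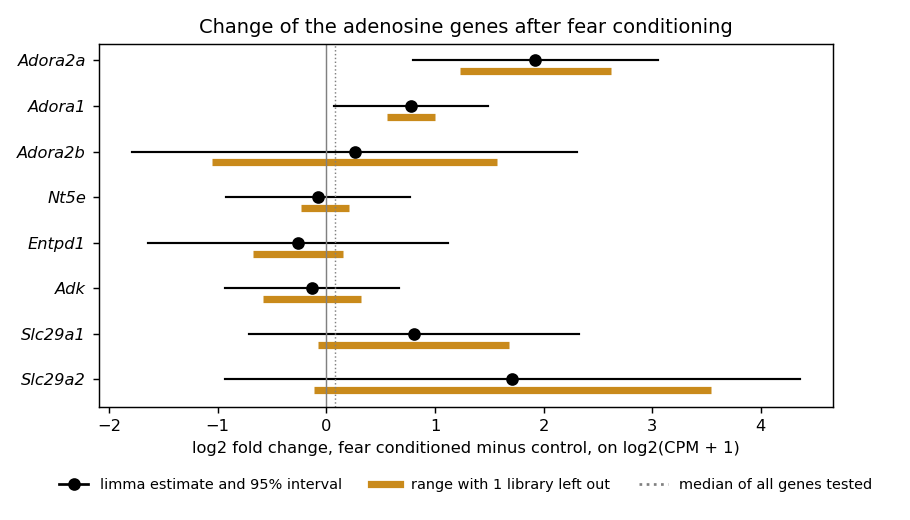
Log2 fold change of each adenosine gene between fear conditioned and control libraries on log2(CPM + 1) (horizontal axis), with the limma estimate and its 95% interval in black, the range of estimates with 1 library left out in orange, and the median of all genes as a dotted line. The orange bar stays above 0 for Adora2a (from 1.23 to 2.62) and Adora1 (from 0.56 to 1.0) and crosses 0 for the other 6 genes. For Adora2a and Adora1 it could not cross 0, because their groups do not overlap.

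Levels were compared between genes as CPM per kilobase of the deposited gene length. The order of medians over the 5 libraries was Adora2a (179), Adk (98.7), Nt5e (19.4), Adora1 (14.1), Slc29a1 (4.48), Slc29a2 (3.94), Entpd1 (2.13) and Adora2b (1.04 CPM per kilobase). Adora2a ranged from 41.3 to 306 CPM per kilobase and was higher than 89.0% of genes in its lowest library and 98.9% in its highest. It exceeded Adk in the 3 fear conditioned libraries and fell below it in both controls, so the first place was not held in every library. Adk exceeded Nt5e in 5 of 5 libraries without overlap of their ranges, and so did Adora1 over Slc29a1. All other neighbours in the order overlapped.

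Among the 3 receptor genes, Adora2a held most of the signal per kilobase. Its share was 92.3%, 92.8% and 93.7% in fear conditioned replicates 2, 3 and 4, compared with 73.1% and 92.3% in control replicates 6 and 7. Control replicate 6 alone was low, with 22.0% for Adora1 and 4.94% for Adora2b. The ratio of Adora2a to Adora1 per kilobase was 3.33 in that library and between 11.98 and 15.9 in the other 4.

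**Figure D3:**
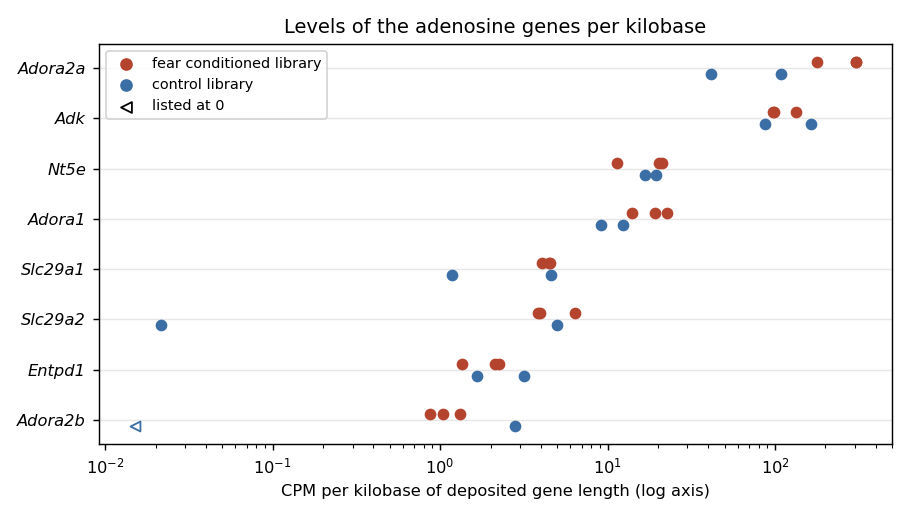
CPM per kilobase of gene length (horizontal log axis) for each adenosine gene, ordered by its median, with 1 point per fear conditioned (red) or control (blue) library and an open triangle for a value listed at 0. Adora2a and Adk stand apart at the top, with medians of 179 and 98.7, and Adora2b is lowest, with a median of 1.04.

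To see whether Adora2a moved with the other genes of D2 neurons, its ratio to Drd2 and to Penk, the enkephalin precursor of these neurons, was taken within each library, where library scaling nearly cancels. The log2 ratio of Adora2a to Drd2 was 0.47, 1.04 and 0.48 in fear conditioned replicates 2, 3 and 4, compared with -0.29 and 0.07 in control replicates 6 and 7. Group means were 0.66 ± 0.32 (SD, n = 3) and -0.11 ± 0.26 (SD, n = 2), a difference of 0.77 with no overlap of the groups (p = 0.1 in a two-sided exact permutation test, the lowest value that 3 against 2 libraries can give). Adora2a was thus the higher of both genes in every fear conditioned library, and about level with Drd2 or below it in the controls. With each library left out in turn, this difference ranged from 0.59 to 0.96. Its sign could not turn, because the groups did not overlap.

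Against Penk the separation was incomplete. The log2 ratio of Adora2a to Penk was -5.15, -4.14 and -4.27 in fear conditioned replicates 2, 3 and 4, compared with -5.85 and -4.96 in control replicates 6 and 7. Fear conditioned replicate 2 was below control replicate 7, and the difference in means of 0.89 was not separated from the spread of the libraries (two-sided exact permutation test, p = 0.3). Against Adora1 the fear conditioned libraries gave 1.95, 2.04 and 2.27, control replicate 7 gave 1.86 and control replicate 6 gave 0.03. The difference of 1.15 (p = 0.1, again by exact permutation) fell to 0.23 without control replicate 6 and was 2.06 without control replicate 7.

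**Figure D4:**
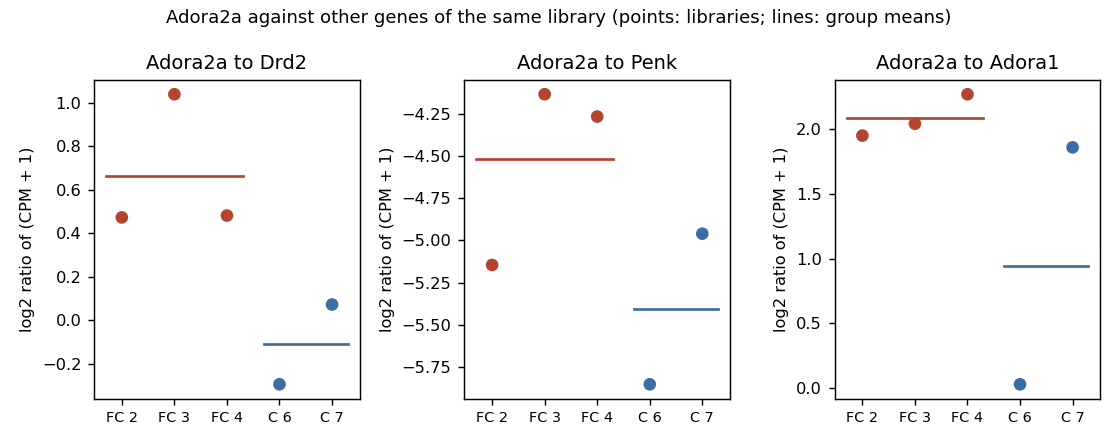
Log2 ratio of Adora2a to Drd2, Penk and Adora1 on CPM + 1 (vertical axes, which do not start at 0) in each fear conditioned (FC, red) and control (C, blue) library, with lines at the group means. The ratio to Drd2 separates the groups (0.47 to 1.04 against -0.29 to 0.07), the ratio to Penk overlaps, and the ratio to Adora1 is low in control replicate 6 alone.

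By the likeness of its profile over the 5 libraries, Adora2a was closest to Phf12, Tmem90a, Cd4, Hibadh and Rasd2. Pearson's r of log2(CPM + 1) was 0.999, 0.999, 0.998, 0.996 and 0.994 in that order, among 9275 genes with a mean of at least 10 CPM. Tmem90a, also called Syndig1l, and Rasd2 belong to the lists of striatal projection neuron genes used here. Tmem90a gave 400, 568 and 595 CPM after fear conditioning, against 105 and 243 in the controls, the same order of libraries as Adora2a. It was picked for a like profile, so this order is no further evidence. Pearson's r takes no account of the size of a change. Log2 fold changes were 0.67 for Phf12, 1.68 for Tmem90a, 1.46 for Cd4, 0.48 for Hibadh and 1.64 for Rasd2. That of Adora2a was 1.92. Drd2 stood at rank 68 (r = 0.964), Penk at rank 235 (r = 0.916) and Adora1 at rank 1061 (r = 0.716). The 5 points share the library and its scaling, and such values are a description.

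The genes that work with the A2A receptor in D2 neurons mostly had positive estimates. Of 15 signalling partners, 11 were higher in the mean and 4 lower (54.0% of all genes were higher), and 0 passed the test. In 6 of them the fear conditioned libraries were all above the controls and in 1 all below (46.7% not overlapping, against 36.4% of all genes). Their median log2 fold change was 0.50. Drd2 had the highest, at 1.15, followed by Ppp1r1b (DARPP-32, a phosphatase inhibitor controlled by cAMP) at 1.10, Gng7 (a G protein gamma subunit of striatal neurons) at 0.99 and Pde1b (a calcium-dependent phosphodiesterase) at 0.96. The stimulatory G protein subunit Gnal had 483, 886 and 785 CPM in fear conditioned replicates 2, 3 and 4, compared with 425 and 459 in control replicates 6 and 7, with no overlap, and a log2 fold change of 0.65. Adcy5, the main striatal adenylyl cyclase, overlapped between the groups, with a log2 fold change of 0.46. Gnas had the lowest, at -1.33, in a locus where several transcripts overlap. No partner had an estimate above the 1.92 of Adora2a, a difference that was not tested except against Drd2. Positive estimates were not particular to the partners. Several partners also belong to the list of 12 shared striatal projection neuron genes, and Drd2 to the striatopallidal list. All 12 shared genes had positive estimates, with a median log2 fold change of 0.97. The groups did not overlap in 8 of these 12 (66.7%).

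Several lists of cell type genes differed in sum between the groups in the same libraries, and 0 genes of any list passed the test. The 6 striatopallidal genes listed summed to between 14923 and 17118 CPM after fear conditioning and to 6464 and 9313 in control replicates 6 and 7, a sum made up mostly of Penk. All 6 had positive estimates, with a median log2 fold change of 1.32, and 1 of them was at 0 in each control. In 5 of the 6 the groups did not overlap (83.3%, against 36.4% of all genes). The Drd1a neuron genes likewise had 6 of 6 positive estimates, with a median of 1.38, and they summed to between 182 and 378 CPM after fear conditioning, against 119 and 101 in controls. The groups did not overlap in 3 of these 6 (50%), and 1 of them was at 0 in control replicate 7. Of 7 central amygdala neuron genes, 5 had negative estimates and 2 positive, with a median of -0.79. The groups did not overlap in 3 of these 7, all lower (42.9%, against 36.4% of all genes). The sums of the 7 overlapped only in that fear conditioned replicate 2 and control replicate 6 both had 313 CPM. Fear conditioned replicates 3 and 4 had 171 and 165 CPM, and control replicate 7 had 557. Sums of the pallial glutamatergic genes also overlapped between the groups. The choroid plexus genes summed to between 61.8 and 113 CPM after fear conditioning and to 1042 and 1441 in controls, of which Ttr, the transthyretin gene, made up 913 and 1320. Clic6, which made up most of the sums after fear conditioning, had a log2 fold change of 0.08. In control replicate 7 Aqp1 and Otx2 were listed at 0. Of the 9 choroid plexus genes, 3 were at 0 in fear conditioned replicate 2 and 1 each in replicates 3 and 4. The oligodendrocyte genes summed to between 1258 and 2669 CPM, against 2734 and 5321. In such bulk pull-downs, more cells of a type and more RNA per cell cannot be told apart, and the part of these lists in the Adora2a values was not tested.

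**Figure D5:**
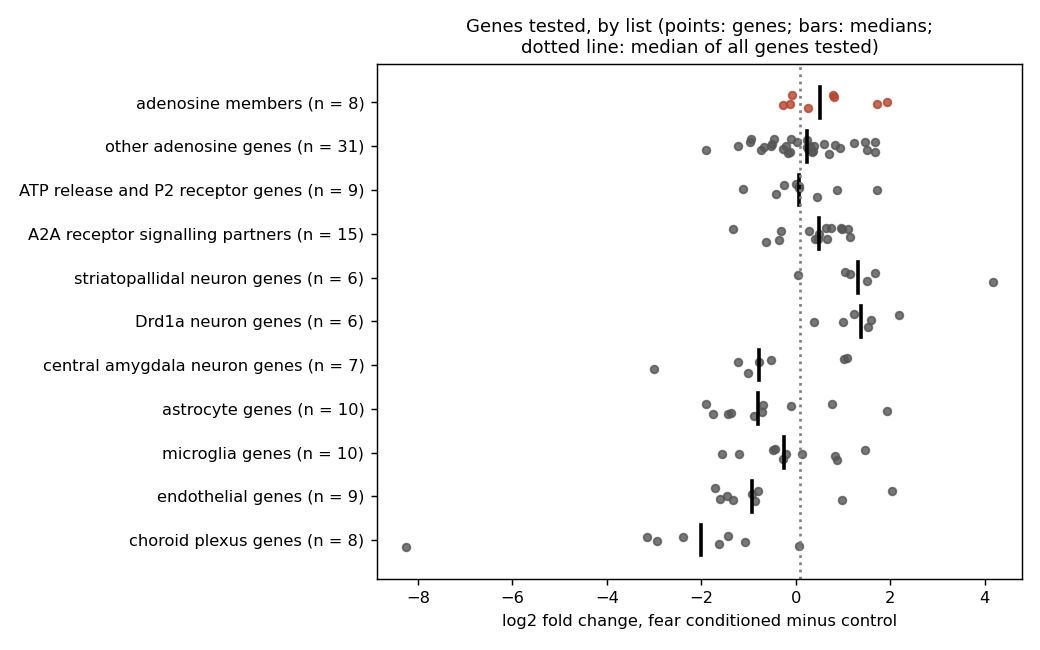
Log2 fold change between fear conditioned and control libraries (horizontal axis) for each gene tested in the adenosine group and in 10 further lists, with 1 point per gene, a bar at each list's median and a dotted line at the median of all genes (0.08). The striatopallidal and Drd1a neuron lists have medians of 1.32 and 1.38, the central amygdala neuron list one of -0.79, and the astrocyte, endothelial and choroid plexus lists have medians of -0.80, -0.92 and -2.001.

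Outside the 9 genes, the wider adenosine pathway showed no common direction. Of 45 further genes for adenosine and purine handling, 32 were matched, 10 were not listed and 3 carried an identifier of another gene. Among the 31 tested, 17 were higher and 14 lower after fear conditioning (54.0% of all genes were higher), 0 passed the test, and the median log2 fold change was 0.24. The groups did not overlap in 8 higher and 4 lower genes (38.7%, near the 36.4% of all genes). The highest estimate was that of Nt5c3, a cytosolic nucleotidase, with 127, 116 and 112 CPM in fear conditioned replicates 2, 3 and 4, compared with 81.1 and 15.98 in control replicates 6 and 7 (log2 fold change 1.68). The lowest was that of Entpd5, a relative of Entpd1 that acts on nucleoside diphosphates, with 6.92, 8.16 and 12.5 CPM after fear conditioning, against 33.1 and 39.7 in controls (log2 fold change -1.91, adjusted p = 0.200, limma).

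S-adenosylhomocysteine hydrolase, which releases adenosine inside the cell, is encoded by Ahcy, with 16.2, 18.2 and 14.2 CPM after fear conditioning, against 20.8 and 3.22 in controls. Its relatives had estimates of opposite sign. Ahcyl1, known for regulating calcium release, had 345, 511 and 419 CPM after fear conditioning, against 293 and 229 in controls (log2 fold change 0.69). Its paralog Ahcyl2 had 57.6, 73.3 and 74.4 CPM after fear conditioning, against 145 and 126 in controls (log2 fold change -0.98, adjusted p = 0.200, limma). Neither gene overlapped between the groups and neither passed the test. Slc29a4, the plasma membrane monoamine transporter, which also carries adenosine, had a log2 fold change of -1.22, and the lysosomal transporter gene Slc29a3 one of 1.24. Both were also without overlap.

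Of 17 genes for ATP release and P2 receptors, 9 were listed, and 0 of these passed the test. The groups did not overlap in 2 higher and 1 lower gene (33.3%, near the 36.4% of all genes), and the median log2 fold change was 0.06. P2ry13 had the highest, at 1.71, from 3.32, 1.42 and 2.53 CPM after fear conditioning, against 0.0334 and 0 in controls. P2rx6 had the lowest, at -1.13. P2ry12, which marks microglia, had 12.2, 15.7 and 20.8 CPM after fear conditioning, against 11.2 and 6.06 in controls, and is also a member of the microglia list.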

How the data were processed

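TRAP RNA was sequenced in 5 libraries of adult Drd2-TRAP mice. The authors used 50-base paired-end reads and software called Tuxedo DESeq in the methods. The processing notes name DESeq and mm8. The aligner, its version and the strand setting are not given in the sources used here. The authors deposited a normalized signal per gene and library, in reads per 1000000 of an effective library size (CPM), and a gene length. All values (100%) were whole multiples of 1 read within 0.01, and reads were recovered from them.

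Groups were taken from the labels. No paired analysis was possible because the groups have no replicate number in common. limma 3.58.1 (eBayes with a trend) was fitted on log2(CPM + 1), two-sided, for the 13560 genes with a mean of at least 1 CPM, with Benjamini-Hochberg adjustment over all of them. A call needed an adjusted p under 0.05 with a log2 fold change over 0.5 in size. On this scale the change of low genes is understated. Ratios were tested by exact permutation, two-sided, over the 10 ways to divide 5 libraries into 3 and 2. Other tests, on recovered reads, were edgeR 4.0.16 (quasi-likelihood), DESeq2 1.42.0 and limma voom. Further alternatives were a pseudocount of 0.1, other filters and scalings, and each library left out. Levels per kilobase left out 9 genes with a length of 0 or below.

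Genes named are the 9 members, Drd2, Drd1a and Penk for reference, and the 5 genes most like Adora2a. The highest and lowest estimates are named for the lists of other adenosine, P2 and signalling partner genes, but not for the cell type lists. Further genes were singled out after their values were seen (Tmem90a, Ppp1r1b, Gng7, Pde1b, Gnal, Adcy5, Ahcy, Ahcyl1, Ahcyl2, Slc29a3, Slc29a4, P2ry12, Slc2a1, Ttr, Clic6, Aqp1 and Otx2). The members and lists were chosen with earlier results of these data known. Gene symbols were matched through a table of identifiers and RefSeq synonyms (GRCm38.p6, names and overlaps only). The fits ran in R 4.3.3 and the summaries in Python 3.11.15 (matplotlib 3.10.9, pandas 2.3.3, numpy 2.4.6).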

Additional observations from a re-analysis of the deposited data

How the results depend on the processing

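The estimate for Adora2a was above 0 in all 14 alternatives, and the one for Adora1 too. In the fits that left out 1 library this could not be otherwise, because the groups did not overlap in either gene. Leaving out 1 library moved Adora2a between 1.23 and 2.62, Adora1 between 0.56 and 1.0, and the difference of the log2 ratio to Drd2 between 0.59 and 0.96, to Penk between 0.44 and 1.34, and to Adora1 between 0.23 and 2.06. The number of genes called ranged from 0 to 8025 and that of the 8 adenosine genes from 0 to 4 when 1 library was left out. The 8025 (without control replicate 6), 3722 (without control replicate 7) and 1 (without fear conditioned replicate 3) compare with 0 in the fit of all 5 libraries. Each fit with 1 control takes its spread from the fear conditioned libraries, assuming that the lone control varies like them, which the control pair did not. Adora2a then had adjusted p values of 0.0172 and 0.00368 (limma) without control replicates 6 and 7. Without control replicate 6 the calls were Adora2a, Adora1, Adora2b and Slc29a2, and without control replicate 7 Adora2a and Slc29a1. Those fits tested 13268 and 13550 genes in that order, so calls were common among all genes. The calls of adenosine genes in them therefore do not set these genes apart. DESeq2 called 1155 genes and 1 of the 8, Adora2a (1.76).

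No gene passed in the main limma fit of all libraries, and 6 of the 8 changed direction under some alternative. Adora2b was -0.14 after quantile normalization, -0.33 and -0.31 with edgeR's quasi-likelihood test with and without a filter, -0.36 with DESeq2 and -1.05 without control replicate 7. With 1 library left out, the estimates ranged from -1.05 to 1.57 for Adora2b, from -0.23 to 0.21 for Nt5e, from -0.68 to 0.15 for Entpd1, from -0.58 to 0.32 for Adk, from -0.075 to 1.68 for Slc29a1 and from -0.12 to 3.54 for Slc29a2. Nt5e was 0.0041 after quantile normalization, 0.21 without fear conditioned replicate 2 and 0.03 without control replicate 7. The reversals of Entpd1, Adk and Slc29a2 came without control replicate 7 and that of Slc29a1 without control replicate 6. The cause was not tested. The median of all genes was 0.08 in the main fit, -0.11 with DESeq2 and 0.25 with voom. Requiring 1 CPM or more in all libraries left no fit for Adora2b and Slc29a2. The depth of 1 read in control replicate 7 limits what can be said of Slc29a2.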
